A study of Mus musculus with 6 samples.

Results

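The genes described here are 35 genes of endothelial cells and blood vessel growth, out of 12393 genes measured on mouse expression arrays. They were chosen by name, and each is represented by the brightest of its probe sets, the groups of short probes that read 1 transcript; together they have 56 of the 22626 probe sets. Liver tumours of 3 Alb/AEG-1 mice and of 3 wild-type (WT) mice were compared, with 1 array per tumour sample and a separate animal number on each. All 6 animals were males recorded under the CD-1 background strain, were given N-nitrosodiethylamine (DEN), a liver carcinogen, at 10 µg per g body weight by intraperitoneal injection when 14 days old, and were killed at 28 weeks. Alb/AEG-1 animals carry extra AEG-1 (astrocyte elevated gene-1, mouse gene Mtdh), a transgene driven in hepatocytes by the albumin promoter. The transgene was a 5.3-kb fragment injected into embryos of B6CBAF1/J matings, and WT animals lack it. The labels do not state how many founder lines were used. AEG-1 has been studied as a promoter of tumour angiogenesis, and the comparison asks whether vessel genes differ between transgenic and WT tumours.

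Blood vessels of the liver are of several kinds. The sinusoids are lined by thin, fenestrated endothelial cells that clear macromolecules through scavenger receptors and carry markers such as Lyve1, Stab1, Stab2 and Flt4. In hepatocellular carcinoma these cells often lose their sinusoidal markers and take on features of continuous capillaries, a process called capillarization. New vessels sprout under vascular endothelial growth factors, angiopoietins and fibroblast growth factors. Their receptors sit mostly on endothelial cells, and Notch and ephrin signals then set tip cells apart from stalk cells and arteries from veins.

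In these tumours 0 of the 35 genes differed between Alb/AEG-1 and WT past an adjusted p of 0.05 in limma, with adjusted p between 0.596 and 0.996. Among all 22626 probe sets 1 passed, which is 0.00442%. The 2 genes with an unadjusted p below 0.05 were Esm1 and Lyve1, both higher in Alb/AEG-1 tumours. They are 5.71% of the 35 genes, against 8.33% of all genes. The number that also differed at least 1.5-fold was 0, against 0.928% of all genes. In 5 of the 35 genes (14.3%) every value of one group lay beyond every value of the other, against 15.1% of all genes. Esm1, Lyve1, Efnb2 and Thbs1 were higher in this way, and Cd34 was lower. All of them except Lyve1 were dim, with means below 5. With all 6 arrays and the values as deposited, these shares were close to those of the whole array, slightly below them. With 35 genes the gaps are small and are not read as a trait of the vessel genes. For some sets of 5 arrays the shares lay above those of all genes, and for others below. After another normalization the share without overlap lay above (17.1%, against 13.9% to 15.2% of all genes). Without Alb/AEG-1 replicate 1, 4 of the 35 genes (11.4%) had an unadjusted p below 0.05, against 5.69% of all genes, and without WT replicate 1 it was 5 (14.3%), against 12% of all genes. Without WT replicate 3 it was 1 (2.86%), against 5.87% of all genes. With dim probe sets (mean below 5) left out it was 0 of 24, against 7.53% of all genes. The share without overlap was 14.3% without Alb/AEG-1 replicate 3, against 28.5% of all genes.

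Of the 35 genes 21 (60%) had a negative difference, Alb/AEG-1 minus WT, against 52.2% of all genes, and the median difference was -0.07 log2, against -0.01 over all genes. The median size, whatever its sign, was 0.115 log2 for the 35 genes and 0.102 for all genes. For 30 of the 35 genes (85.7%, against 86.7% of all genes) the 95% interval of the difference, not adjusted for the number of genes, lay wholly within 1.5-fold in either direction. The 5 genes whose interval reached further were Esm1, Lyve1, Vegfc, Fgf1 and Nrp1. The samples were bulk tumour RNA, so for any gene a different number of endothelial cells and a different amount of RNA per cell cannot be told apart.

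**Figure D1:**
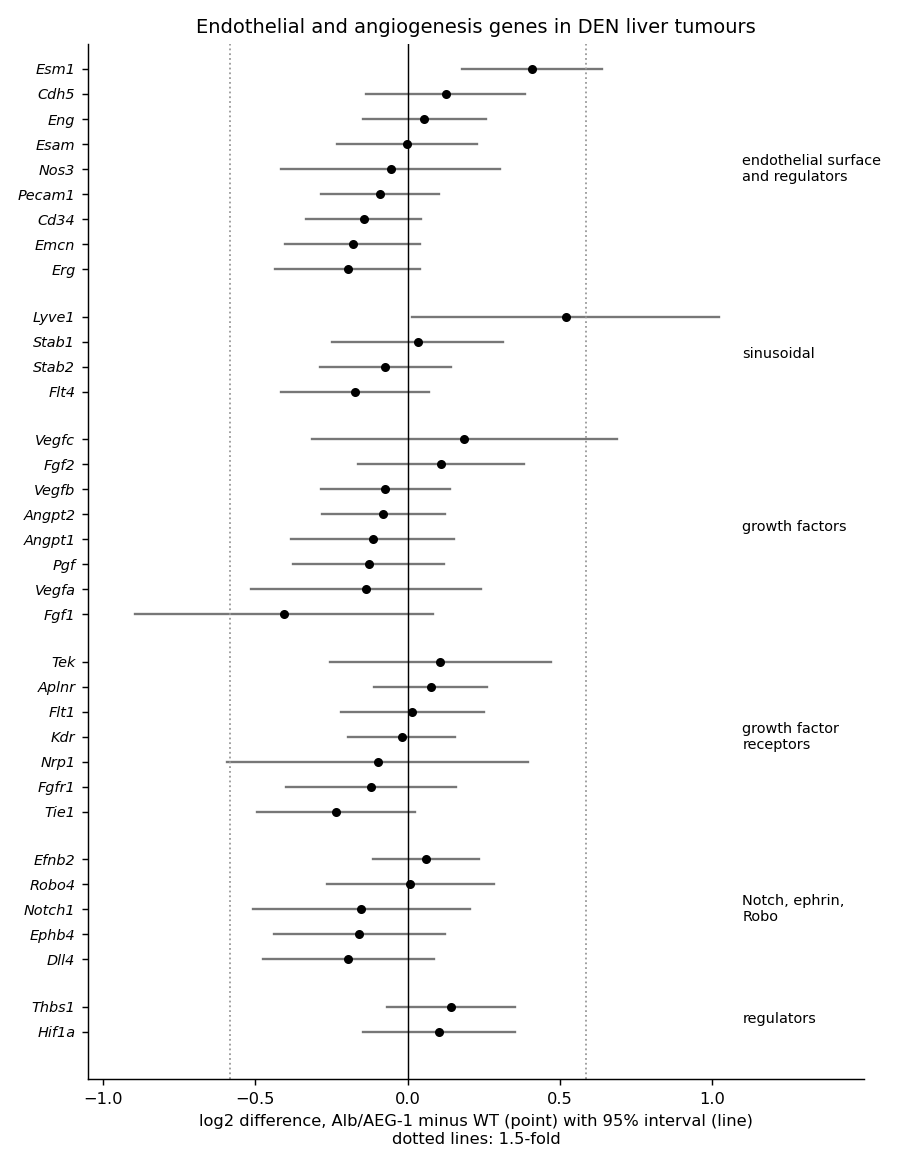
Difference in log2 expression level, Alb/AEG-1 minus WT, for each of the 35 genes (points) with its 95% interval from limma (lines), 3 arrays per group; dotted lines mark 1.5-fold. Of the 35 intervals, 30 lie between the dotted lines, and only those of Esm1 and Lyve1 lie entirely above zero.

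**Figure D2:**
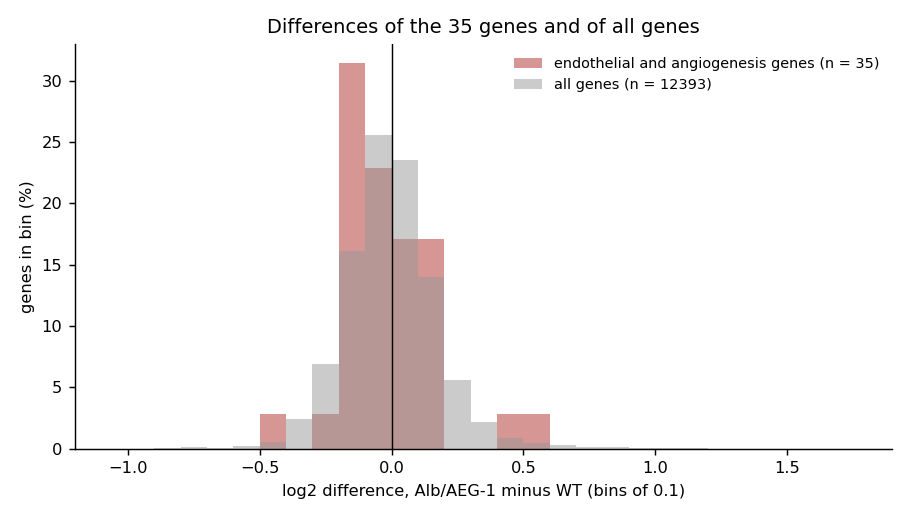
Percent of genes (vertical axis) in each 0.1-wide bin of the log2 difference, Alb/AEG-1 minus WT, for the 35 vessel genes and for all 12393 genes; genes outside the plotted range are not drawn. Both distributions centre close to zero, with medians of -0.07 and -0.01.

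Levels are log2 values as deposited, and the median probe set averaged 5.83. The array medians lay between 5.82 and 5.84, and the correlation between any 2 arrays over probe sets (a description, since probe sets are not independent) was 0.987 to 0.993. Brightness differs between probe sets of equal RNA, so levels of different genes are not ranked. Among the 35 genes 11 had a mean below 5, including the endothelial markers Pecam1, Cd34 and Emcn, and the table holds no call of which values exceed background. The SD of the 35 genes within a group had a median of 0.12 in Alb/AEG-1 and 0.11 in WT tumours. Its highest values were 0.44 for Lyve1 in Alb/AEG-1 and 0.43 for Vegfc in WT tumours.

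Among the sinusoidal markers, Lyve1, a hyaluronan receptor of sinusoidal and lymphatic endothelium that some tissue macrophages also carry, differed most. Its levels were 6.05, 6.18 and 6.87 in Alb/AEG-1 tumours, against 5.98, 5.94 and 5.62 in WT tumours. The groups did not overlap, but 2 of the Alb/AEG-1 values lay close to the highest WT value, and the array of Alb/AEG-1 replicate 3 stood well above the rest. The difference was 0.52 ± 0.22 log2 (SE, n = 3 per group; limma, adjusted p = 0.616), with a 95% interval from 0.02 to 1.02. A second, dimmer Lyve1 probe set read 5.28, 5.33 and 5.65 in Alb/AEG-1 tumours, against 5.17, 5.26 and 5.28 in WT tumours, a difference of 0.18 ± 0.11 with overlapping groups. Without Alb/AEG-1 replicate 3 the Lyve1 difference was 0.27, and without WT replicate 3 it was 0.41. With 1 array left out, its unadjusted p stayed below 0.05 only where that array was Alb/AEG-1 replicate 1 or 2.

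The values of the other 3 sinusoidal markers overlapped between the groups. Stab2, encoding the scavenger receptor stabilin-2 that clears hyaluronan, was at 7.27, 7.36 and 7.42 in Alb/AEG-1 tumours, against 7.41, 7.54 and 7.32 in WT tumours. Its difference was -0.07 ± 0.09, with an interval from -0.29 to 0.14. Stab1, encoding the related stabilin-1, was at 6.78, 6.62 and 7.05 in Alb/AEG-1 tumours, against 6.81, 6.71 and 6.84 in WT tumours. The WT values lie inside the range of the Alb/AEG-1 values, and the difference was 0.03 ± 0.12. Flt4, encoding the VEGF-C receptor VEGFR3, was at 6.93, 7.08 and 6.99 in Alb/AEG-1 tumours, against 7.23, 6.99 and 7.29 in WT tumours. The mean was lower in Alb/AEG-1 tumours by more than the SD of either group, but the ranges overlapped, with a difference of -0.17 ± 0.10 (limma, adjusted p = 0.662) and -0.08 ± 0.11 in its other probe set.

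**Figure D3:**
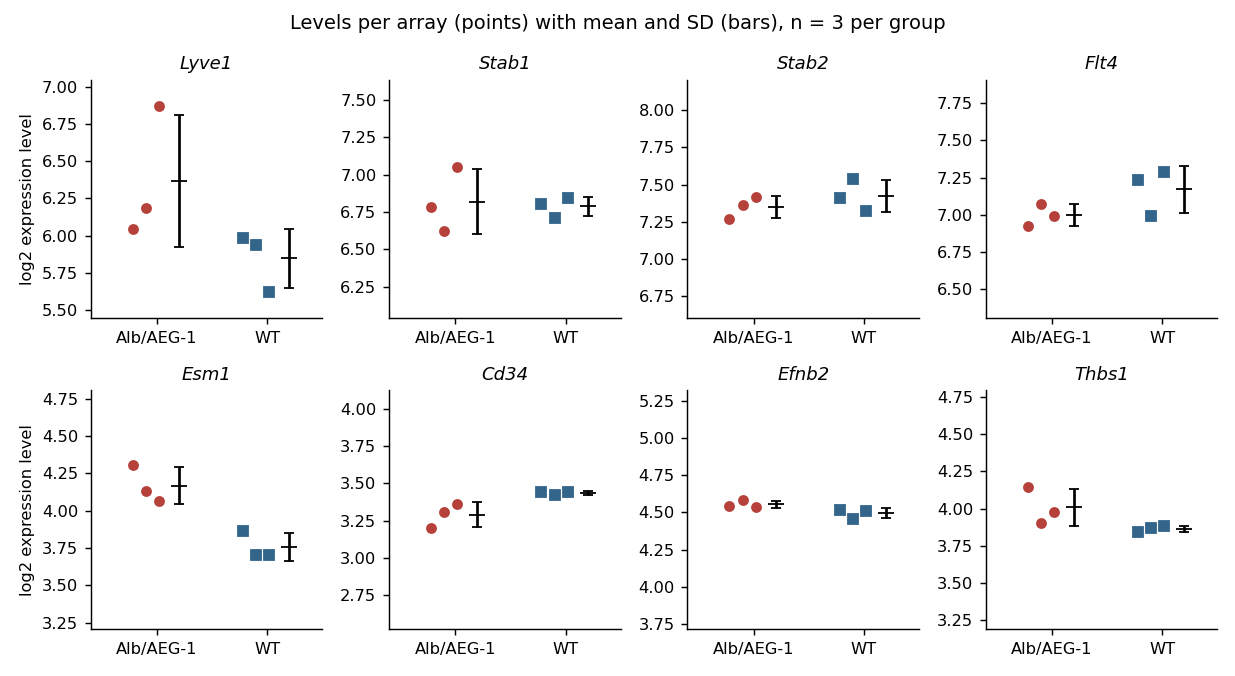
Log2 expression level of the 4 sinusoidal markers (top row) and of the other genes whose groups did not overlap (bottom row), for each array of 3 Alb/AEG-1 and 3 WT tumours; bars give mean and SD, and each panel spans 1.6 log2. Lyve1 is highest in 1 Alb/AEG-1 tumour at 6.87, Stab1, Stab2 and Flt4 overlap, and Esm1 lies between 4.07 and 4.31 in Alb/AEG-1 and between 3.70 and 3.87 in WT tumours.

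Macrophage markers were also higher on the array with the highest Lyve1. Of 12 listed macrophage and Kupffer cell markers 11 were measured, and 11 of 11 had a positive difference, with a median of 0.42 log2 and 0 past an adjusted p of 0.05. Their mean level was 7.20, 7.43 and 7.74 on the Alb/AEG-1 arrays, against 7.30, 6.82 and 6.98 on the WT arrays. The ranges overlap, and the difference was 0.01 among lower and 0.83 among higher animal numbers, against 0.13 and 1.09 for Lyve1. Among lower numbers the macrophage mean of the WT array lay between those of the Alb/AEG-1 arrays. The 3 with the smallest p were C1qb, a complement subunit made by macrophages (0.76 ± 0.21, adjusted p = 0.596), Cd5l, a secreted macrophage protein (0.54 ± 0.17, adjusted p = 0.601), and C1qc (0.42 ± 0.17, adjusted p = 0.611). The part of these cells in the Lyve1 difference was not tested. Medians for the lists of other cell types lay between -0.20 log2 for lymphatic endothelium and 0.36 for neutrophils, with 0.01 for hepatocytes, 0.03 for bile duct cells and 0.03 for stellate and mural cells. The lymphatic and neutrophil lists had only 3 measured genes each. The mean difference of the neutrophil list was 1.09 among lower and -0.61 among higher animal numbers.

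Of 9 genes that mark endothelial cells in general, 3 had a positive and 6 a negative difference, with a median of -0.06 log2. Cdh5, encoding VE-cadherin of endothelial junctions, was at 6.70, 6.88 and 6.76 in Alb/AEG-1 tumours, against 6.85, 6.49 and 6.62 in WT tumours. The groups overlapped (0.13 ± 0.11), and its dimmer probe set differed by -0.18 ± 0.11. Pecam1, the adhesion molecule CD31 used to count vessels in tissue, was low on the scale at 3.86, 4.01 and 3.85 in Alb/AEG-1 tumours, against 4.02, 4.02 and 3.97 in WT tumours, with a difference of -0.09 ± 0.08. Cd34, a sialomucin of capillary endothelium that stains capillarized sinusoids, was at 3.20, 3.31 and 3.36 in Alb/AEG-1 tumours, against 3.44, 3.42 and 3.44 in WT tumours. All its Alb/AEG-1 values lay below all WT values, by a small margin at the bottom of the scale (-0.14 ± 0.08; limma, adjusted p = 0.651).

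Esm1 was the gene of the 35 with the smallest p. It encodes endocan, a proteoglycan secreted by endothelial cells and enriched in the tip cells of sprouting vessels. Its levels were 4.31, 4.13 and 4.07 in Alb/AEG-1 tumours, against 3.87, 3.70 and 3.70 in WT tumours, and the groups did not overlap. The difference was 0.41 ± 0.10 log2 (limma, adjusted p = 0.596), with an interval from 0.18 to 0.64. It was 0.35 among the lower and 0.36 among the higher of 2 ranges of animal number, described further on, and between 0.34 and 0.46 with any 1 array left out. Its single probe set is dim, brighter than 20% of probe sets.

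Eng, encoding the co-receptor endoglin, differed by 0.06 ± 0.09, and Esam, an adhesion molecule of endothelial junctions, by -0.002 ± 0.099. Nos3, encoding endothelial nitric oxide synthase, differed by -0.06 ± 0.15. Emcn, a sialomucin of veins and capillaries, differed by -0.18 ± 0.10 (limma, adjusted p = 0.640), and Erg, an ETS transcription factor that maintains endothelial identity, by -0.20 ± 0.10 (adjusted p = 0.638). In each of these 5 genes the groups overlapped.

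Growth factors for vessels did not differ past the threshold either, with 2 of 8 positive, 6 negative and a median of -0.10 log2. Vegfa, the main angiogenic factor and a product of hepatocytes and tumour cells, was at 8.33, 7.99 and 8.43 in Alb/AEG-1 tumours, against 8.17, 8.67 and 8.32 in WT tumours. The highest value was a WT tumour and the lowest an Alb/AEG-1 tumour (-0.14 ± 0.16; interval -0.51 to 0.24). In its other probe set the levels were 6.77, 6.54 and 6.76 in Alb/AEG-1 tumours, against 6.79, 6.94 and 6.79 in WT tumours, lower without overlap by a narrow margin (-0.15 ± 0.10; limma, adjusted p = 0.680). Vegfb, a ligand of VEGFR1, differed by -0.07 ± 0.09 and Pgf, placental growth factor with the same receptor, by -0.13 ± 0.11.

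Fgf1, encoding acidic fibroblast growth factor, had the largest negative difference of the 35 genes. It was at 8.04, 8.38 and 8.63 in Alb/AEG-1 tumours, against 8.37, 8.80 and 9.09 in WT tumours, which overlap. The difference was -0.41 ± 0.21 (limma, adjusted p = 0.638), with an interval from -0.90 to 0.08, and -0.39 ± 0.23 in the other probe set. In a model that also held the range of the animal number it was -0.24. Fgf2, basic fibroblast growth factor, was dim and differed by 0.11 ± 0.12. Angpt2, the angiopoietin that loosens vessels during sprouting, was at 4.21, 4.03 and 4.12 in Alb/AEG-1 tumours, against 4.15, 4.27 and 4.17 in WT tumours (-0.08 ± 0.09), and Angpt1, which stabilizes them, differed by -0.11 ± 0.12.

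The animal numbers in the sample titles form a lower range (Alb/AEG-1 replicates 1 and 2 and WT replicate 1) and a higher one (Alb/AEG-1 replicate 3 and WT replicates 2 and 3). The labels do not say what the numbers record. Vegfc, the ligand of VEGFR3 and driver of lymphatic growth, was apart by number and not by genotype. In the lower numbers it was at 5.17 and 5.05 in Alb/AEG-1 tumours and 5.31 in the WT tumour, and in the higher numbers at 4.76 in the Alb/AEG-1 tumour and at 4.55 and 4.57 in WT tumours. Its difference between genotypes was 0.19 ± 0.22, -0.19 among lower numbers and 0.20 among higher ones, and 0.003 in a model that also held the range. Fgf1 was also apart by range, in the other direction, with every value of the lower numbers below every value of the higher. Eng and Aplnr were apart by range too, in the direction of Vegfc, by very narrow margins. Vegfc and Fgf1 were picked after their values were seen, and the share of all genes apart by range is not given here. The split by range is therefore not read as a trait of these genes. The difference of Nrp1, encoding the VEGF co-receptor neuropilin-1, was -0.10 ± 0.21 and turned with the range, at 0.44 among lower and -0.48 among higher numbers. Of the 35 genes 15 had opposite signs in the ranges, where 1 or 2 arrays stand for each genotype. The share over all genes is not given here, so this count is a description only.

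**Figure D4:**
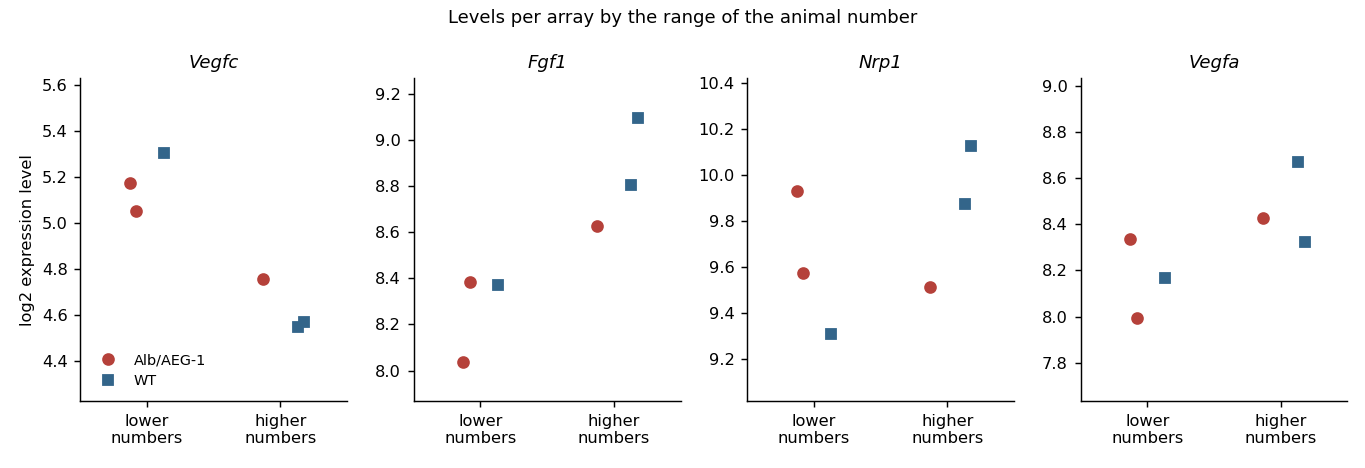
Log2 expression level of Vegfc, Fgf1, Nrp1 and Vegfa on each array, by the lower or higher range of the animal number (horizontal axis) and by genotype (circles Alb/AEG-1, squares WT); each panel spans 1.4 log2. Vegfc is at 5.05 to 5.31 in the lower and 4.55 to 4.76 in the higher numbers, whatever the genotype.

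Of 7 receptors for these factors 3 had a positive and 4 a negative difference, with a median of -0.02 log2, and 0 passed the adjusted threshold. Kdr, encoding VEGFR2, the main signalling receptor for VEGF-A, was at 7.86, 7.79 and 7.82 in Alb/AEG-1 tumours, against 7.85, 7.81 and 7.85 in WT tumours. The 6 values lay between 7.79 and 7.86, and the difference was -0.02 ± 0.08 with an interval from -0.19 to 0.16. Flt1, encoding VEGFR1, a receptor that also acts as a decoy for VEGF-A, was at 6.04, 6.19 and 6.05 in Alb/AEG-1 tumours, against 6.02, 6.24 and 5.98 in WT tumours (0.02 ± 0.10), and its other probe sets differed by -0.07 and -0.01. Tek, encoding the angiopoietin receptor TIE2, was at 6.00, 5.69 and 6.10 in Alb/AEG-1 tumours, against 5.98, 5.53 and 5.95 in WT tumours, with a difference of 0.11 ± 0.16. Tie1, the co-receptor of TIE2, was at 5.58, 5.64 and 5.54 in Alb/AEG-1 tumours, against 5.60, 5.94 and 5.92 in WT tumours. 1 WT value lay among the Alb/AEG-1 values, and the difference was -0.23 ± 0.11 (limma, adjusted p = 0.629). Fgfr1, a receptor of fibroblast growth factors, differed by -0.12 ± 0.12 and Aplnr, the apelin receptor, by 0.08 ± 0.08.

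Genes of Notch, ephrin and Robo signalling had 2 positive and 3 negative differences. Dll4, the Notch ligand of tip cells, was at 4.98, 5.07 and 5.05 in Alb/AEG-1 tumours, against 4.97, 5.34 and 5.36 in WT tumours (-0.19 ± 0.12), while its other probe set differed by 0.13 ± 0.11. Notch1, a receptor for it, was at 7.60, 7.14 and 7.01 in Alb/AEG-1 tumours, against 7.47, 7.37 and 7.36 in WT tumours, with overlap (-0.15 ± 0.15). The difference was -0.33 without Alb/AEG-1 replicate 1 and -0.03 without Alb/AEG-1 replicate 3. The other Notch1 probe set was at 6.32, 6.18 and 6.22 in Alb/AEG-1 tumours, against 6.51, 6.58 and 6.56 in WT tumours. It did not overlap, with a difference of -0.31 ± 0.08 (limma, adjusted p = 0.596). With those of Esm1 and Lyve1, 3 of the 56 probe sets (5.36%) had an unadjusted p below 0.05, against 8.06% of all probe sets. Ephb4, the ephrin receptor of veins, differed by -0.16 ± 0.12, and Robo4, an endothelial roundabout receptor, by 0.01 ± 0.12. Efnb2, the ephrin ligand of arteries, was at 4.54, 4.58 and 4.54 in Alb/AEG-1 tumours, against 4.52, 4.46 and 4.51 in WT tumours. Its groups did not overlap, but the difference was only 0.06 ± 0.07, and 1 of its other 3 probe sets differed in the opposite direction.

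Of the regulators, Hif1a, the oxygen-regulated transcription factor that induces Vegfa, was at 8.15, 8.18 and 8.24 in Alb/AEG-1 tumours, against 8.20, 8.19 and 7.88 in WT tumours. The positive difference of 0.10 ± 0.11 rests on the low value of WT replicate 3, and without that array it was -0.002. Its other, dimmer probe sets differed by -0.07 ± 0.11, -0.03 ± 0.09 and -0.20 ± 0.10, the last without overlap but dim. HIF-1 alpha is controlled mainly as a protein, which the arrays do not measure. Thbs1, encoding thrombospondin-1, an inhibitor of angiogenesis, was at 4.14, 3.90 and 3.98 in Alb/AEG-1 tumours, against 3.84, 3.87 and 3.88 in WT tumours. These did not overlap (0.14 ± 0.09; limma, adjusted p = 0.673), and its other probe set differed by -0.02 ± 0.09.

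The sinusoidal markers were then set against the growth factors and receptors on each array. The mean level of the 4 sinusoidal markers minus that of the 15 growth factors and receptors was 0.70, 0.83 and 1.08 in Alb/AEG-1 tumours, against 0.83, 0.68 and 0.68 in WT tumours. The groups overlapped, at 0.87 ± 0.19 in Alb/AEG-1 and 0.73 ± 0.09 in WT tumours (SD, n = 3), and the difference of 0.14 was smaller than the SD of Alb/AEG-1. Without Alb/AEG-1 replicate 3 it was 0.03. It was -0.07 among lower and 0.40 among higher numbers. The single high array was the one high for Lyve1. With Lyve1 left out, a choice made after seeing the values, the contrast was 0.94, 1.04 and 1.15 in Alb/AEG-1 tumours, against 1.12, 0.97 and 1.07 in WT tumours, a difference of -0.01. The 15 growth factors and receptors alone averaged 6.01 ± 0.04 in Alb/AEG-1 and 6.07 ± 0.04 in WT tumours. Per array they were at 6.05, 5.98 and 6.00 in Alb/AEG-1 tumours, against 6.03, 6.11 and 6.08 in WT tumours, which overlap. Their difference was -0.007 among lower and -0.096 among higher numbers.

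**Figure D5:**
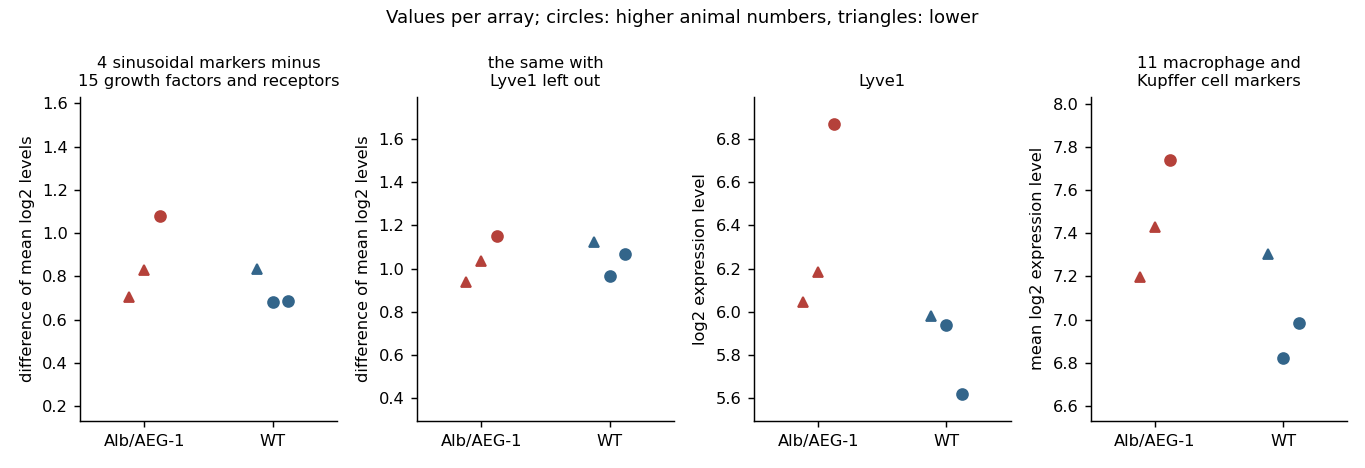
Per array, for 3 Alb/AEG-1 and 3 WT tumours: mean log2 level of 4 sinusoidal markers minus that of 15 growth factors and receptors, the same without Lyve1, the Lyve1 level and the mean level of 11 macrophage markers; each panel spans 1.5 log2. One Alb/AEG-1 array is highest in all 4 panels (1.08, 1.15, 6.87 and 7.74), and the second panel shows overlapping groups.

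Wider lists of the same pathways, listed with earlier results of these data known, also had 0 genes past the adjusted threshold. Of their 98 measured genes, 4 with a positive and 7 with a negative difference had an unadjusted p below 0.05, which is 11.2%, against 8.33% of all genes. Of 14 measured further genes of sinusoidal endothelium 4 were positive and 10 negative, with a median of -0.11 log2. Bmp2, a growth factor that sinusoidal cells send to hepatocytes, was at 7.21, 7.17 and 7.17 in Alb/AEG-1 tumours, against 7.53, 7.60 and 7.49 in WT tumours (-0.36 ± 0.08; limma, adjusted p = 0.596). Gpr182, a receptor of sinusoidal endothelium, differed by 0.22 ± 0.09 and Fcgr2b, an Fc receptor that clears immune complexes, by -0.22 ± 0.12, both without overlap. The Fcgr2b probe set may bind related transcripts. Among 28 further endothelial genes 12 were positive and 16 negative, with a median of -0.05. Their differences ran from -0.35 to 0.56, and the gene at 0.56 was not among the 3 with the smallest p. Calcrl, the receptor subunit for adrenomedullin, was at 7.02, 6.98 and 6.99 in Alb/AEG-1 tumours, against 7.40, 7.19 and 7.44 in WT tumours (-0.35 ± 0.09, adjusted p = 0.596). The transcription factor genes Klf4 and Tal1, both dim with means below 5, differed by -0.25 ± 0.09 and -0.23 ± 0.08.

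Of 23 further angiogenic signalling genes 12 were positive and 11 negative, with a median of 0.01 log2. Their differences ran from -0.73 to 1.04, and the gene at 1.04 was not among the 3 with the smallest p. Angptl4, a secreted inhibitor of lipoprotein lipase that also acts on vessels, differed by -0.73 ± 0.29 with overlapping groups, and its probe set may bind related transcripts. Hes1, a Notch target, differed by 0.51 ± 0.18 with overlap and Sema3c, a semaphorin, by -0.23 ± 0.10 without. Of 12 inhibitors of angiogenesis 5 were positive and 7 negative with a median of -0.004, and the 3 with the smallest p all overlapped. They were Cxcl10, an interferon-induced chemokine that restrains vessel growth (0.34 ± 0.13), the matrix protein gene Sparc (-0.23 ± 0.12) and the protease inhibitor gene Timp1 (-0.20 ± 0.10). Of 21 genes of the hypoxia response 11 were positive and 10 negative, with a median of 0.003. Pdk1, a kinase that diverts pyruvate from mitochondria, varied from 8.11 to 9.91 among Alb/AEG-1 tumours and from 9.59 to 9.85 among WT tumours (-0.72 ± 0.39). Its difference was -0.27 without Alb/AEG-1 replicate 1 and -1.17 without Alb/AEG-1 replicate 3, and -1.02 among lower and 0.10 among higher animal numbers. Arnt, the partner subunit of HIF-1 alpha, differed by -0.22 ± 0.10 and the stress-induced gene Ddit4 by 0.37 ± 0.23. The probe sets of Sema3c, Timp1 and Arnt were dim, with means below 5.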

How the data were processed

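Expression was measured on Affymetrix mouse arrays hybridized with biotinylated cRNA from 5 µg of tumour RNA, per the labels. The deposited log2 values were made by the authors with RMA, per the submitters' processing notes, which give no version; RMA corrects background, quantile-normalizes arrays and summarizes probes, which hides any shift common to most genes. No scanner files were used here, so another background correction was not tried.

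Of 22690 probe sets, 64 controls were left out. Genes came from the platform annotation, updated through gene IDs (GRCm38.p6 RefSeq table; 20351 of 20380 matched); the 691 probe sets with several symbols and 1555 with none were not named. The brightest probe set by mean of 6 arrays stood for a gene.

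The labelled genotype set the groups, and replicate numbers follow accession order. Titles give each sample its own animal number, with no more on how the samples were taken, so p-values measure the spread between these samples. Differences, Alb/AEG-1 minus WT, were fitted with limma 3.58.1 in R 4.3.3 (2-sided, Benjamini-Hochberg over all probe sets), checked on simulated data; plots used matplotlib 3.10.9. The number of arrays limits the precision.

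The genes and lists were chosen with earlier results of these data known. Per-array values were set for the sinusoidal markers, for genes with an unadjusted p below 0.05 or no overlap, and for Pecam1, Cdh5, Kdr, Flt1, Vegfa, Angpt2, Tek and Hif1a; the others shown per array, and all other probe sets, were chosen after their values were seen. From each wider list the 3 genes with the smallest p are named; cell type lists other than macrophages are given by medians. Alternatives were 15: intensity trend, robust moderation, quantile normalization, median centring, dim (mean below 5) or cross-binding probe sets left out, mean of all probe sets, array weights, animal number range as a term, and each array left out.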

Additional observations from a re-analysis of the deposited data

How the results depend on the processing

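The count of vessel genes past an adjusted p of 0.05 was 0 under the main setting and all 15 alternatives. Over all probe sets 1 passed; it was 0 with the range of animal numbers in the model, 2 with an intensity trend, 2 genes with each gene's probe sets averaged, and 0 to 1 with 1 array left out. The number of vessel genes with an unadjusted p below 0.05 was 2 in the main setting. With dim probe sets left out it was 0 of 24, against 7.53% of all genes. With the mean of all probe sets it was 1 (2.86%, against 8.22%), and with 1 array left out 1 to 5. It was 4 (11.4%, against 5.69% of all genes) without Alb/AEG-1 replicate 1, 5 (14.3%, against 12%) without WT replicate 1, when both remaining WT arrays had higher animal numbers, and 1 (2.86%, against 5.87%) without WT replicate 3. The number without overlap, 5 in the main setting, was 1 of 24 (4.17%, against 14.5% of all genes) with dim probe sets left out. It was 5 to 14 with 1 array left out, since 5 arrays separate more readily. It was 9 (25.7%, against 22.7% of all genes) without Alb/AEG-1 replicate 1, 11 (31.4%, against 26.4%) without Alb/AEG-1 replicate 2, 14 (40%, against 32%) without WT replicate 1, 8 (22.9%) without WT replicate 2 or WT replicate 3, against 22% and 22.7%, and 5 (14.3%, against 28.5%) without Alb/AEG-1 replicate 3. With median centring or quantile normalization it was 6 (17.1%), against 15.2% and 13.9%.

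The median of the endothelial markers was -0.0020 with dim probe sets left out and -0.084 to 0.024 with 1 array left out. That of the Notch, ephrin and Robo genes was -0.031 with the mean of all probe sets and -0.17 to -0.030 with 1 array left out, and that of the regulators was 0.0074 with the mean of all probe sets. The sinusoidal contrast, 0.14, was 0.03 without Alb/AEG-1 replicate 3, 0.22 without Alb/AEG-1 replicate 1 and -0.01 without Lyve1, the last chosen after seeing the data.

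Of 514 values of single genes under alternatives, 490 kept their sign and 24 turned, in 11 genes whose main difference was at most 0.14 in size. With the mean of all probe sets these were Cdh5 (-0.025), Eng (-0.010), Flt1 (-0.024) and Hif1a (-0.049); with median centring Esam (0.011); with quantile normalization Stab1 (-0.0084); and with the range of animal numbers in the model Robo4 (-0.052). With 1 array left out the range was -0.070 to 0.062 for Esam, -0.20 to 0.086 for Nos3, -0.084 to 0.13 for Stab1, -0.25 to 0.0054 for Vegfa, -0.036 to 0.096 for Flt1, -0.33 to 0.080 for Nrp1, -0.037 to 0.23 for Tek, -0.075 to 0.090 for Robo4 and -0.0023 to 0.16 for Hif1a. The cause of these changes was not tested. No paired analysis was possible because the labels give no replicate numbers shared between the groups.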
